A study of Mus musculus with 7 samples.

Results

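Fibrous collagen is hydroxylated and folded inside the cell and crosslinked outside it, and the 10 genes described here encode enzymes and a chaperone of those steps: Lox, Loxl1, Loxl2, Loxl3, Plod1, Plod2, Plod3, P4ha1, P4ha2 and Serpinh1. They were chosen by symbol, with earlier results of these data known, so their counts against all genes are descriptive. All 10 were found among the 29869 gene symbols of the deposited table. The libraries were made from whole soleus, a calf muscle with many slow fibres, and come from 7 mice aged 60 days. All animals carried mdx, a mutation that removes dystrophin and models Duchenne muscular dystrophy. By the sample titles, 4 libraries are labelled mdx (animals 358, 361, 373 and 375) and 3 are labelled mdx/Runx1f/f (animals 359, 363 and 374), the latter with Runx1 floxed; Runx1 encodes a transcription factor that damaged muscle induces. The labels name no Cre driver and do not say which cells recombined. The comparison bears on which transcripts respond to Runx1 in dystrophic muscle, as the series title puts it.

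Procollagen chains are modified in the endoplasmic reticulum. Prolyl 4-hydroxylases, whose catalytic subunits are P4ha1 and P4ha2, hydroxylate proline and so stabilise the triple helix, lysyl hydroxylases (Plod1, Plod2 and Plod3) hydroxylate lysine, and the chaperone Hsp47, encoded by Serpinh1, binds the folded helix. Outside the cell, lysyl oxidase (Lox) and its relatives oxidise lysine and hydroxylysine to start the crosslinks that stiffen collagen and elastin fibres. In muscle these genes are known chiefly from fibroblasts and related stromal cells, which lay down the matrix of dystrophic muscle.

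The stretches upstream of the start sites are shown for 3 members with different outcomes in the comparison: Serpinh1, which rose, P4ha1, which missed the threshold, and P4ha2, which overlapped between the groups. Each is the 250 bases before the start site, 5′ to 3′ on the gene's strand, from RefSeq on GRCm38.p6, a later build than the mm9 genome used for the counts. Capitals mark ACGTG, the core of the hypoxia response element, or TGTGGT, a core sequence bound by Runx factors, on either strand (so also CACGT and ACCACA).
Serpinh1, chr7:99353240-99353489, minus strand: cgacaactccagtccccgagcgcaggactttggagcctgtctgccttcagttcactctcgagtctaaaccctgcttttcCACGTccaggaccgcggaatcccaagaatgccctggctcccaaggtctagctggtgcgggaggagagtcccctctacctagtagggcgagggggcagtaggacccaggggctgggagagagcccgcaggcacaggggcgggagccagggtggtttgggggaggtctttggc
P4ha1, chr10:59323046-59323295, plus strand: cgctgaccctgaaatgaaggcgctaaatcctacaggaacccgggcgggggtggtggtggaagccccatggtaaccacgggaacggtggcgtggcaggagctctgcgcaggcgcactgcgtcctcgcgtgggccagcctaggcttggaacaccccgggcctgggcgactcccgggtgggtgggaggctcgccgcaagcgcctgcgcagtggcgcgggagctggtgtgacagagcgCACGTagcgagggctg
P4ha2, chr11:54100674-54100923, plus strand: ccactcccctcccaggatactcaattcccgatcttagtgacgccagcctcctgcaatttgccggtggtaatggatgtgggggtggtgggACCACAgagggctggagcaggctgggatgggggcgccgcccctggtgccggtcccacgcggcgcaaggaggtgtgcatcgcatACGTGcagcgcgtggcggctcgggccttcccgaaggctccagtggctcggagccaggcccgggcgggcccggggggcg
The RefSeq table matched 5 of the 10 members, and Plod1 and Plod3 are the others. ACGTG was found in 4 of the 5, in Plod3, Serpinh1, P4ha1 and P4ha2, and in 16.6% of all 32851 promoters searched over the same length. The 5 stretches held 55.6% to 70% G and C, against a median of 52.4% over all promoters. The shares were not matched for base composition, and its part in them was not tested. TGTGGT was found in P4ha2 alone among the 5, against 14% of all promoters. No match to TGCGGT, the other Runx core searched, to the heat shock motif GAANNTTC or to the AP-1 motif TGANTCA was found in the 5, and these are in 5.1%, 6.69% and 6.75% of all promoters. Both strands were searched, the motifs do not overlap in these stretches, and a match is a run of letters rather than a site shown to be used. Lox, Loxl1, Loxl2, Loxl3 and Plod2 were not matched.

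Runx1 itself goes against the label. Its normalised read count, the authors' count scaled to library depth, was 274, 273, 235 and 201 under the mdx label and 919, 925 and 596 under the mdx/Runx1f/f label. The groups did not overlap, and each library labelled mdx/Runx1f/f held more Runx1 RNA than any labelled mdx. The means were 246 ± 34.5 (SD, n = 4) and 813 ± 188 (SD, n = 3). The log2 fold change came to 1.74 with an SE of 0.18 (edgeR adjusted p = 0.00795), and a two-sided exact permutation test over the 35 splits gave p = 0.0286, the smallest it can give. Counts cover whole transcripts, so a floxed exon cannot be told apart from the rest of the gene. Other labels conflict as well: the description field ties most animal numbers to other samples, while in the design text 3 muscles are mdx and 4 are mdx/Runx1f/f. The groups below are therefore called by the titles' labels, and higher or lower refers to the libraries labelled mdx/Runx1f/f against those labelled mdx. Library totals ran from 16218306 to 20847902 counts.

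Of the 10 genes, all of which passed the filter on low counts, 4 rose at an edgeR adjusted p below 0.05: Loxl1, Loxl2, Plod2 and Serpinh1. Over all 14033 genes tested, 5.10% rose and 1.85% fell. None of the 10 fell, and at an unadjusted p below 0.05 edgeR and DESeq2 each gave 9 higher and 0 lower. Over all genes at that threshold edgeR gave 2395 higher and 1740 lower of 14033, and DESeq2 2531 and 1846 of 20152. The median log2 fold change of the 10 was 0.89, against -0.0016 over all genes tested. In 7 of them every library labelled mdx/Runx1f/f lay above every library labelled mdx, a pattern met by 13.9% of all genes tested. DESeq2 called 6 of the 10, adding Lox and P4ha1, all higher, where it called 16.0% of all genes in either direction (1484 higher and 881 lower of 14808 with an adjusted p). Since the muscle was sequenced whole, more cells of a type and more RNA per cell cannot be told apart in any of these values.

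**Figure D1:**
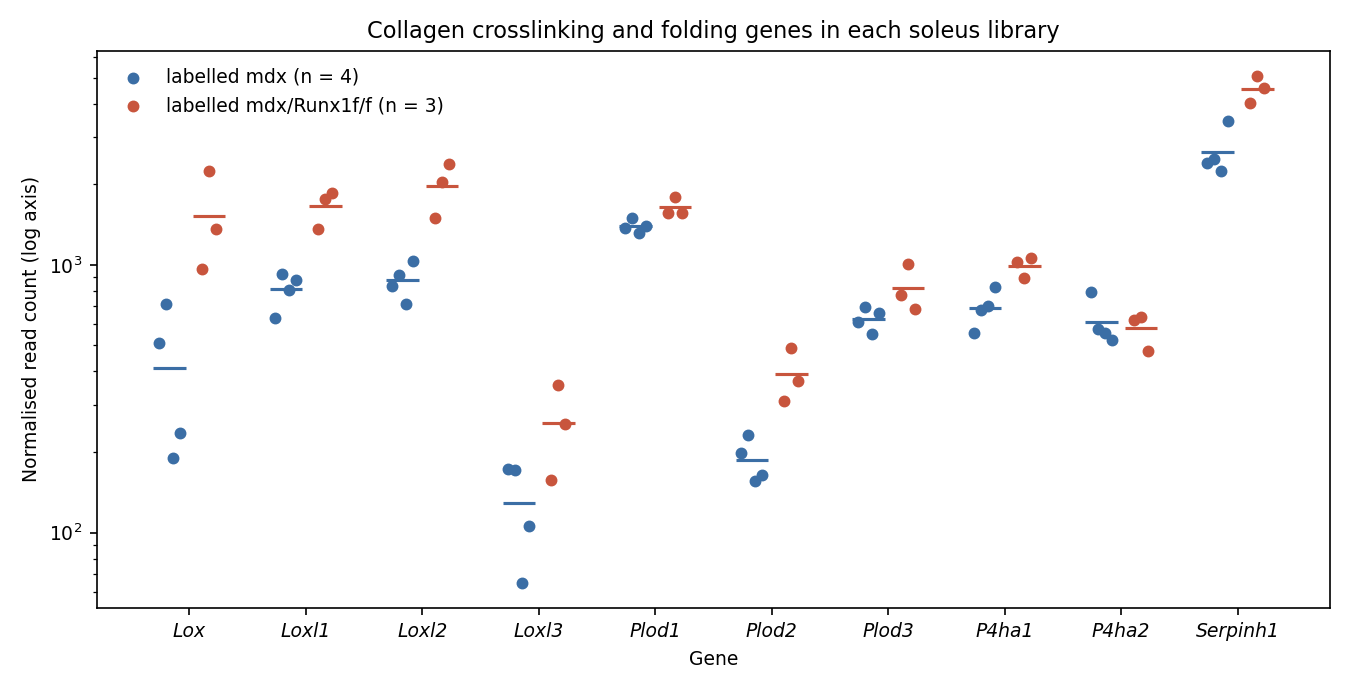
Normalised read count of the 10 genes (log axis) in each of the 4 libraries labelled mdx (blue) and the 3 labelled mdx/Runx1f/f (red); points are libraries and bars are group means. Serpinh1 reaches 5072 in the second library labelled mdx/Runx1f/f, Lox spreads from 190 to 715 within the mdx label, and Loxl3, Plod3 and P4ha2 overlap between the groups.

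Of the crosslinking enzymes, Loxl1 and Loxl2 rose. Loxl1, a lysyl oxidase relative linked to elastin fibres, stood at 633, 928, 804 and 881 normalised counts under the mdx label and at 1362, 1766 and 1858 under the mdx/Runx1f/f label. The groups lay well apart, with the lowest library labelled mdx/Runx1f/f above the highest labelled mdx. The log2 fold change was 1.04 (SE 0.16, edgeR adjusted p = 0.0157). Loxl2, a relative that acts on the collagen IV of basement membranes, was at 833, 916, 714 and 1035 and at 1491, 2039 and 2390.1. Again no library crossed between the groups, and the log2 fold change was 1.18 (SE 0.18, edgeR adjusted p = 0.0161). Without the second library labelled mdx/Runx1f/f the adjusted p was 0.0561 for Loxl1 and 0.0552 for Loxl2, and in each of the other 6 leave-one-out fits both were called.

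Lox, the founding lysyl oxidase, had the largest log2 fold change of the 10 and missed the threshold. It was at 511, 715, 190 and 236 normalised counts under the mdx label and at 963, 2245 and 1357 under the mdx/Runx1f/f label. The groups did not overlap, but the libraries of each label differed widely, with animals 373 and 375 lowest. Its log2 fold change was 1.89 (SE 0.48, edgeR adjusted p = 0.054), and the adjusted p was between 0.00133 (DESeq2) and 0.207 (animals 358 to 363 alone) over the alternatives that keep the titles' groups, apart from 1.15e-05 in animals 373 to 375 alone, a fit with a single library labelled mdx/Runx1f/f. Loxl3, another member of the family, was at 173, 171, 65.1 and 106 and at 157, 357 and 255. The first library labelled mdx/Runx1f/f lay below 2 labelled mdx, and the log2 fold change of 1.00 (SE 0.38) did not pass (edgeR adjusted p = 0.127). Exons of Loxl3 share 535 bases with Htra2 on the opposite strand in the GENCODE M21 annotation, and the strand setting of the counting is not given in the sources used here, so reads of the pair may be mixed.

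The standard deviation of log2 CPM (counts scaled to library size) within a label shows how unevenly the family varied. It was 0.90 for Lox among the libraries labelled mdx and 0.60 among those labelled mdx/Runx1f/f, and 0.66 and 0.58 for Loxl3. For Loxl1 it was 0.24 and 0.23. The ratio of Loxl3 to Lox was lower in every library labelled mdx/Runx1f/f, at 163, 159 and 188 counts of Loxl3 per 1000 of Lox, than in those labelled mdx, at 339, 239, 343 and 448. Ratios of Loxl1 and of Loxl2 to Lox overlapped between the groups.

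Among the lysyl hydroxylases, Plod2, the enzyme that modifies the telopeptides of collagen, rose, and its relatives missed the threshold. Plod2 was at 198, 231, 156 and 164 normalised counts under the mdx label and at 309, 491 and 369 under the mdx/Runx1f/f label. No library crossed between the groups, and the log2 fold change was 1.07 (SE 0.19, edgeR adjusted p = 0.0239). It was called in 4 of 7 leave-one-out fits; the adjusted p was 0.0706 without the third library labelled mdx, 0.0633 without the fourth and 0.0681 without the second labelled mdx/Runx1f/f.

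Plod1, which hydroxylates lysine in the helix, was at 1375, 1502, 1315 and 1391 and at 1562, 1795 and 1568. The groups did not overlap, yet lay close, and the log2 fold change was 0.24 (SE 0.09, edgeR adjusted p = 0.12). Plod1 also varied least within a label of the 10 genes, with standard deviations of log2 CPM of 0.08 and 0.10. Plod3, which also adds sugars to hydroxylysine, was at 610, 698, 554 and 659 and at 769, 1006 and 685. In replicate 3 labelled mdx/Runx1f/f it lay below the second labelled mdx, and the log2 fold change of 0.39 (SE 0.14) did not pass (edgeR adjusted p = 0.122). Exons of Plod3 share 529 bases with Znhit1 on the opposite strand, so the same doubt about strand applies. Plod2 per 1000 counts of Plod1 was 144, 154, 118 and 118 under the mdx label and 198, 273 and 235 under the other, with no overlap, while the ratio of Plod3 to Plod1 overlapped.

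Neither prolyl 4-hydroxylase subunit passed the threshold, and the ratio of P4ha2 to P4ha1 overlapped between the groups. P4ha1 was at 556, 676, 703 and 827 normalised counts under the mdx label and at 1022, 897 and 1064 under the mdx/Runx1f/f label. The groups did not overlap, and the log2 fold change of 0.53 (SE 0.14) just missed the threshold (edgeR adjusted p = 0.0576, and 0.0159 to 0.16 over the alternatives that keep the titles' groups). P4ha2 was at 792, 574, 558 and 523 and at 620, 639 and 478. These values were intermixed, with the highest and the next to highest libraries under different labels. The log2 fold change was -0.07 (SE 0.17, edgeR adjusted p = 0.811), and its sign turned to 0.07 without the first library labelled mdx and to 0.04 without the third labelled mdx/Runx1f/f.

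Serpinh1, the collagen chaperone, stood at 2402, 2493, 2250.1 and 3436 normalised counts under the mdx label and at 4032, 5072 and 4566 under the other. The fourth library labelled mdx was the highest of its label and still below all libraries labelled mdx/Runx1f/f. The log2 fold change was 0.79 (SE 0.16, edgeR adjusted p = 0.0331). The call held in 2 of 7 leave-one-out fits: the adjusted p was 0.0583 without the first library labelled mdx, 0.0755 without the second, 0.0892 without the third, 0.105 without the second labelled mdx/Runx1f/f and 0.0608 without the third.

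**Figure D2:**
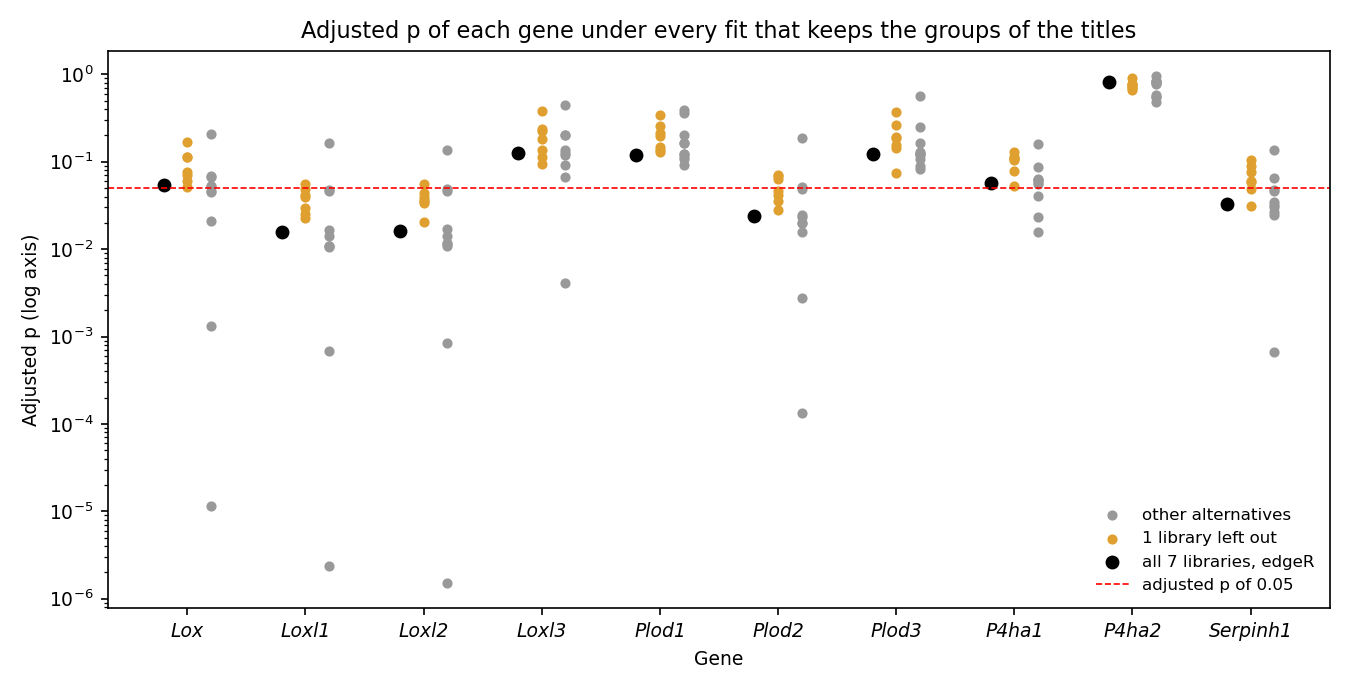
Adjusted p (log axis) of each of the 10 genes in the edgeR fit over all 7 libraries (black), with 1 library left out (orange) and under the other alternatives that keep the titles' groups (grey); the dashed line marks 0.05. Loxl1 and Loxl2 stay below the line in 6 of 7 fits with a library left out, Serpinh1 in 2, and Lox in 0.

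The second library labelled mdx/Runx1f/f (animal 363) weighed on the counts most. Without it 0 of the 10 genes passed by edgeR, with 6 at an unadjusted p below 0.05, and without the third library labelled mdx 2 passed. Over all genes, 190 of 14151 passed without animal 363, with 1764 higher and 1060 lower at an unadjusted p below 0.05. Without the third library labelled mdx 263 of 13945 passed. Animal numbers fall into a 358 to 363 series and a 373 to 375 series, whose meaning the labels do not give. In animals 358 to 363 alone (2 against 2) edgeR called 0 of the 10 and 7 had an unadjusted p below 0.05. Over all 14051 genes tested there it called 0, with 1658 higher and 1011 lower at an unadjusted p below 0.05. For animals 373 to 375 alone (2 against 1, the lone library being assumed to vary like the others) only log2 fold changes are given here. Log2 fold changes in the 2 series were 1.40 and 2.67 for Lox, 1.02 and 1.14 for Loxl1, 1.03 and 1.45 for Loxl2, 0.92 and 1.21 for Plod2, and 0.91 and 0.69 for Serpinh1. The sign of each of the 10 genes was the same in both series.

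In the authors' deposited table, for which the submitters' processing notes name DESeq2, 6 of the 10 genes had an adjusted p below 0.05. The share over all genes of that table was not computed. The DESeq2 fit made here on the same counts called 16.0% of all genes in either direction. The authors' deposited table gives Lox a log2 fold change of 1.31 (adjusted p 0.00301) and P4ha1 0.50 (adjusted p 0.0107), and adds Loxl1, Loxl2, Plod2 and Serpinh1.

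Per 1000 bases of exon (GENCODE M21), a scale that allows genes to be compared, Serpinh1 held the highest level in both groups, at 1083 ± 219.8 (SD, n = 4) and 1865 ± 213 (SD, n = 3) normalised counts. Loxl3 held the lowest, at 31.4 ± 12.9 and 62.5 ± 24.5, followed by Plod2 at 50.4 ± 9.26 and 105 ± 24.9. Under the mdx label the order from the top was Serpinh1, Plod1, P4ha2, Loxl1, Plod3, P4ha1, Loxl2, Lox, Plod2 and Loxl3. Under the mdx/Runx1f/f label it was Serpinh1, Loxl1, Plod1, Loxl2, Lox, Plod3, P4ha2, P4ha1, Plod2 and Loxl3. Neighbours whose ranges overlap have no firm order: under the mdx label P4ha2 ran from 224 to 339 and Loxl1 from 192 to 282, and under the mdx/Runx1f/f label Plod3 ran from 209 to 307, P4ha2 from 204 to 273 and P4ha1 from 218 to 259. Lox moved from rank 8 to rank 5, with 86.5 ± 51.6 and 318 ± 137. Under the mdx/Runx1f/f label it ran from 201 to 469.9, which overlaps every gene except Serpinh1, Plod2 and Loxl3, so rank 5 is not firm.

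The enzymes were then set against their substrates. Of 14 collagen chain and elastin genes tested, 8 rose and the median log2 fold change was 1.18. The fibrillar collagens Col1a1 (1.47, SE 0.24, edgeR adjusted p = 0.0187), Col1a2 (1.35, SE 0.24, edgeR adjusted p = 0.0218) and Col3a1 (1.43, SE 0.21, edgeR adjusted p = 0.0157) were among them, with Col5a1, Col5a2 and the collagen VI chains Col6a1, Col6a2 and Col6a3. Without the second library labelled mdx/Runx1f/f the adjusted p was 0.061 for Col1a1 and 0.0673 for Col1a2, and without the fourth labelled mdx it was 0.0535 for Col1a2. Eln, elastin, had 1.17 and Col11a1 0.98, neither called. The collagen IV chains, on which Loxl2 acts, were not called and overlapped between the groups: Col4a1 had -0.03 (SE 0.41) and Col4a2 0.08 (SE 0.34). Per count of Col1a1, Col1a2 and Col3a1 together, 5 of the 10 enzyme genes were lower in every library labelled mdx/Runx1f/f, 0 were higher in every one, and 5 overlapped. The lower genes were Plod1, Plod3, P4ha1, P4ha2 and Serpinh1. These collagens rose by 1.35 to 1.47, and the median over all genes tested was -0.0016. A gene that did not change would therefore also be lower by this ratio. The share of all genes that were lower in this way was not computed.

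Serpinh1 stood at 50.7, 46.9, 69.4 and 61.0 counts per 1000 fibrillar collagen counts under the mdx label and at 37.4, 38.1 and 33.5 in the others. All the libraries labelled mdx/Runx1f/f lay below, by 0.63 on the log2 scale of the means. Plod1 went from 29.0, 28.3, 40.6 and 24.7 to 14.5, 13.5 and 11.5, and P4ha2 from 16.7, 10.8, 17.2 and 9.29 to 5.76, 4.79 and 3.51. Lox, at 10.8, 13.5, 5.86 and 4.19 against 8.94, 16.8 and 9.96, and Loxl1, Loxl2, Loxl3 and Plod2 overlapped between the groups. A lower ratio means only that a gene rose less than these collagens or not at all, and no test was made of it.

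**Figure D3:**
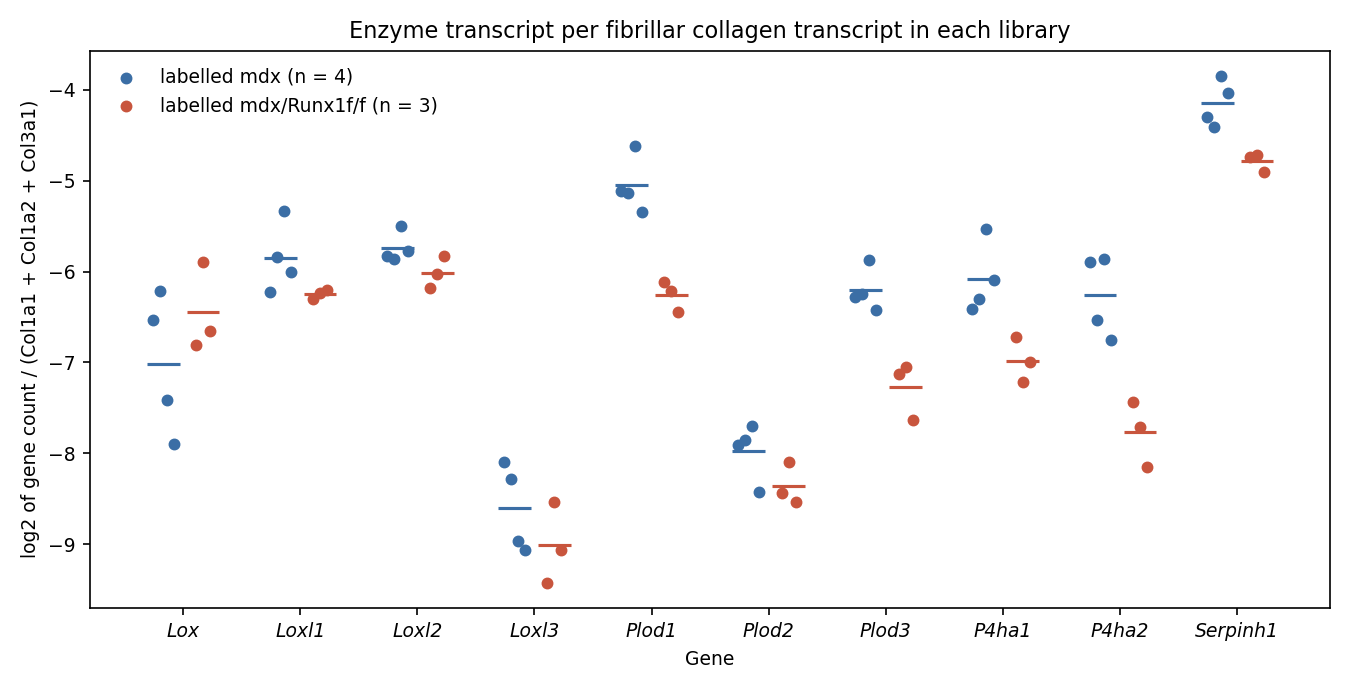
Log2 of the normalised count of each gene over the summed counts of Col1a1, Col1a2 and Col3a1 in each library labelled mdx (blue, n = 4) and mdx/Runx1f/f (red, n = 3); bars are group means. Plod1, Plod3, P4ha1, P4ha2 and Serpinh1 have all red points below all blue ones, with differences of the means from -0.63 to -1.51, and the other 5 genes overlap. Since these collagens rose, a gene that did not change would also be lower by this ratio.

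Summed markers of fibroblasts, macrophages, tendon and Schwann cells were higher in every library labelled mdx/Runx1f/f than in any labelled mdx. Of 10 fibroblast (fibro-adipogenic progenitor) markers, 8 rose; their summed normalised counts ran from 27444 to 33667 under the mdx label and from 56054 to 72513 under the other. The defining receptor gene Pdgfra had 1.08 on the log2 scale (SE 0.13, edgeR adjusted p = 0.0105). Of 12 macrophage markers 5 rose, with sums of 3592 to 14489 and 14708 to 38846, and Csf1r, the receptor that defines the lineage, had 1.73 (SE 0.45, edgeR adjusted p = 0.0573). Of 6 tendon markers 1 rose, with sums of 5673 to 15745 and 23179.7 to 40492. Most of these sums is Thbs4, which had 1.53 and was not called (edgeR adjusted p = 0.0504). Of the 6, 5 had a log2 fold change above 0, while Scx had -0.47 and was not called. Of 6 Schwann cell markers 3 rose, with sums of 2204 to 2888 and 3698 to 4174. No marker was at 0 in every library. The part of these cells in the enzymes' differences was not tested.

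Adipocyte markers had the highest median log2 fold change of the marker lists, 2.25 over 6 genes. Of them 3 rose, Adipoq (2.26), Plin1 (2.23) and Cidec (2.38), while Fabp4, which makes up most of their summed counts, had 0.16 and was not called, and the sums overlapped at 5269.8 to 7448 and 6240.3 to 9952. Endothelial sums overlapped, from 11641 to 19408 and from 13094 to 17377, with 1 of 8 markers called, and Pecam1 had 0.16 (SE 0.18, edgeR adjusted p = 0.579). Mural sums overlapped too, at 94513 to 131195 over all libraries, with 0 of 7 called by edgeR and 4 at an unadjusted p below 0.05. Most of these sums is Des, at 82819.7 to 114235, which is also among the general fibre markers, so they say little about mural cells. Satellite cell, general fibre and fast fibre markers overlapped in their sums, and edgeR called 0 of 7 in each, with 4, 0 and 1 at an unadjusted p below 0.05. The fast fibre marker Myh4 was very uneven, at 739, 2019, 8982 and 3277 normalised counts under the mdx label and at 246072, 53268 and 1293 under the other. Its log2 fold change was 4.76 (SE 1.46, edgeR adjusted p = 0.0806). Slow fibre markers, which mark the labelled tissue, ran from 426823 to 738178 and from 121454 to 413259, and edgeR called 0 of 6 with 3 at an unadjusted p below 0.05. Animal 359, labelled mdx/Runx1f/f, had the lowest slow fibre sum of all libraries, 121454, and the highest fast fibre sum, 1199701. Myh7, slow myosin, had -1.15 (SE 0.45, edgeR adjusted p = 0.139), and Acta1, skeletal actin, had -0.31 (SE 0.30, edgeR adjusted p = 0.521). Set against Pdgfra in place of collagen, 3 of the 10 genes (Plod1, Plod3 and P4ha2) were lower without overlap, 0 were higher and 7 overlapped, with a median difference of -0.18. Pdgfra itself rose by 1.08, so a gene that did not change would be lower by this ratio too. The share over all genes was not computed here either.

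**Figure D4:**
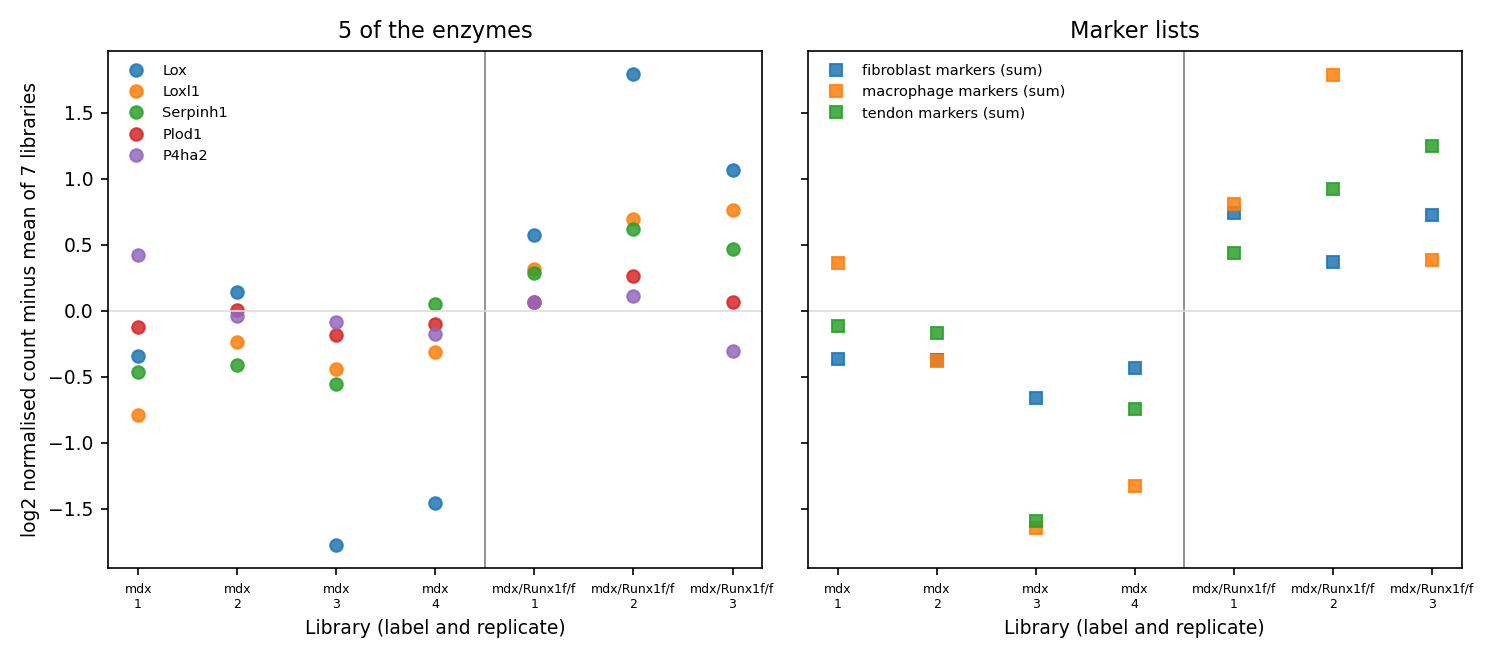
Log2 normalised count minus the mean of the 7 libraries for 5 of the genes (left) and for the summed counts of 3 marker lists (right), by library; the vertical line parts the labels and replicates have no order. Lox (2245 counts), Serpinh1 (5072), Plod1 (1795) and the macrophage sum (38846) reach their highest point in the second library labelled mdx/Runx1f/f. Loxl1 and P4ha2 peak in other libraries, and Plod1 has the narrowest spread of the 5 genes.

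The remaining collagen machinery was read from lists of 32 further genes, of which 28 were tested: 8 rose, 1 fell and the median log2 fold change was 0.50. Of 14 genes for modification and folding, 4 rose. They were Crtap (0.77, SE 0.13), Leprel2 (0.79, SE 0.16) and Lepre1 (0.47, SE 0.11), which belong to the prolyl 3-hydroxylase group, and Fkbp10 (0.86, SE 0.17), a prolyl isomerase of the endoplasmic reticulum. Tmem38b, which encodes an ion channel of that compartment, fell, from 3039.7, 2793, 2425 and 2238 normalised counts to 1888, 1597 and 1549, or -0.64 on the log2 scale (SE 0.14, edgeR adjusted p = 0.035). P4ha3, another prolyl 4-hydroxylase subunit, was at 50.7, 100.3, 8.83 and 13.8 and at 98.9, 247 and 145; the groups overlapped by 1 library and its 1.92 (SE 0.71) was not called (edgeR adjusted p = 0.121). Ppib, a partner of Crtap, had 0.53 and was not called. Without the second library labelled mdx/Runx1f/f only Adamts2, Pcolce and Pcolce2 of the 28 rose, without the fourth labelled mdx 4 rose, and Tmem38b was not called without replicate 2 or 3 labelled mdx/Runx1f/f or without replicate 1, 2 or 3 labelled mdx (adjusted p 0.0541 to 0.115).

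Of 6 procollagen export genes tested, Sec24d, a coat protein of the vesicles that carry procollagen, rose (0.89, SE 0.15, edgeR adjusted p = 0.02). Creb3l1 (0.58) and Sar1b (0.35) were not called, and Mia3 is listed at 0 in every library. Of 8 propeptide processing and other crosslinking genes tested, 3 rose: Adamts2 (1.26, SE 0.13), the protease that removes the amino propeptide, and Pcolce2 (1.26, SE 0.16) and Pcolce (1.13, SE 0.15), which enhance removal of the carboxy propeptide. Adamts14 (0.96) and Tll1 (0.89) were not called, and Bmp1 is listed at 0 in every library.

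**Figure D5:**
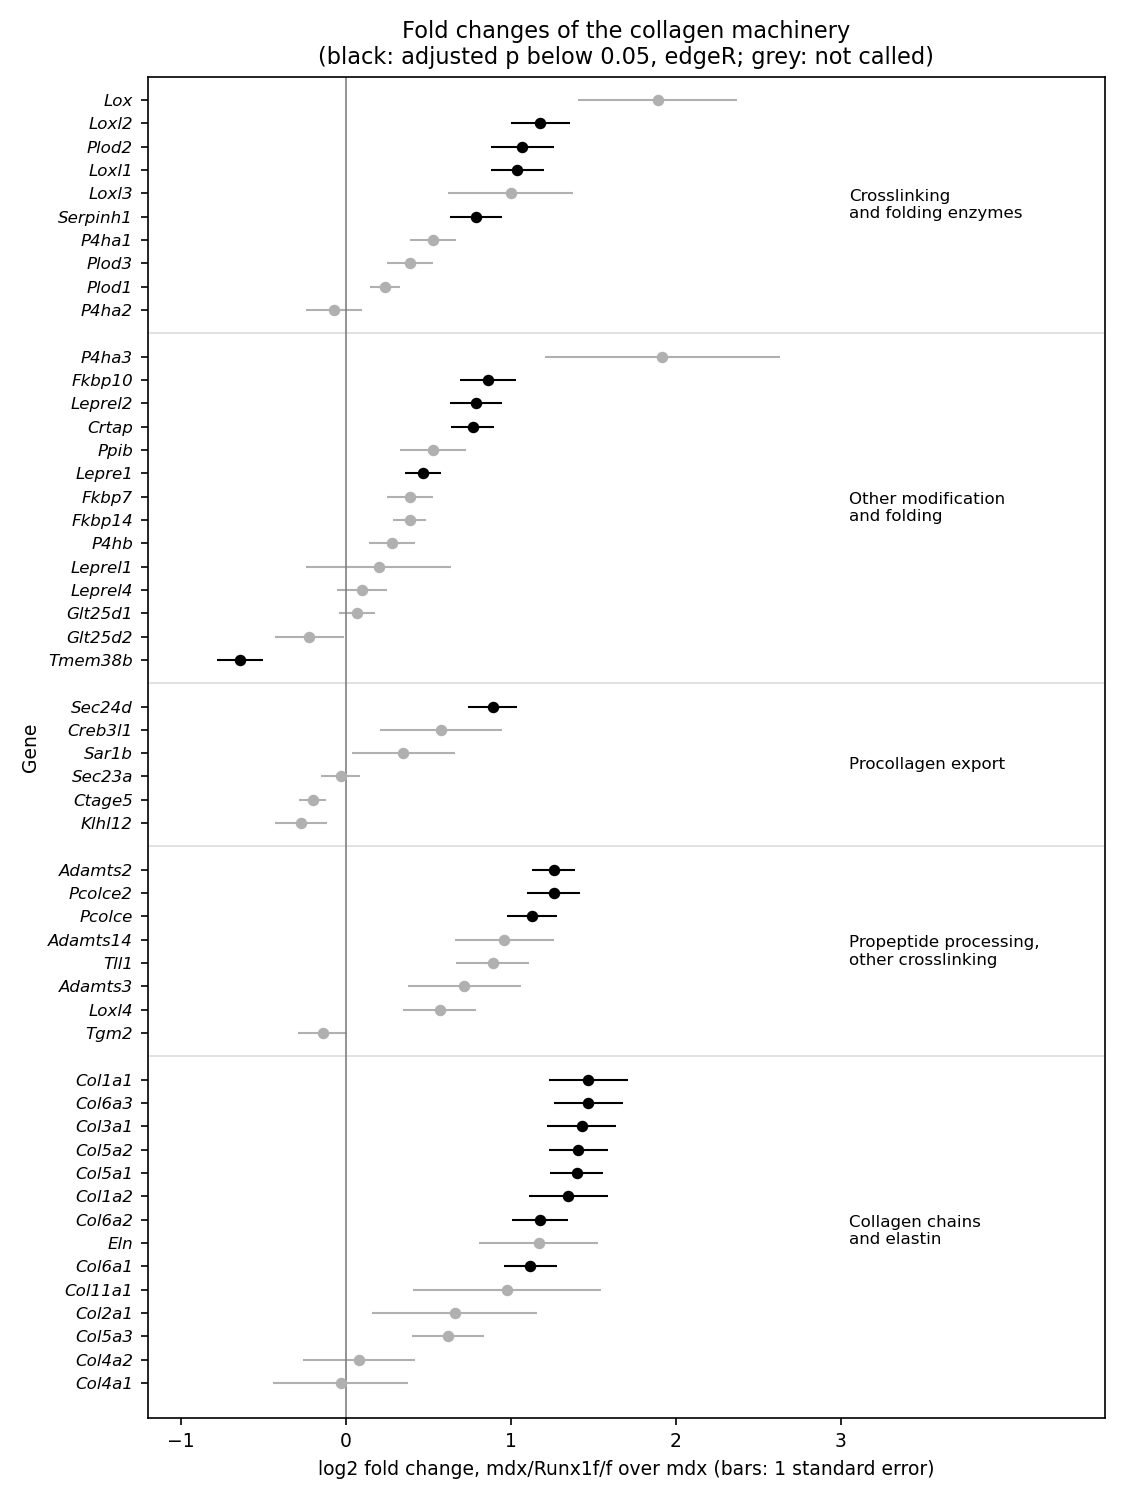
Log2 fold change of the libraries labelled mdx/Runx1f/f over those labelled mdx for the 10 genes and for tested genes of the other collagen lists, with 1 standard error; black marks an edgeR adjusted p below 0.05. The 10 genes run from -0.07 (P4ha2) to 1.89 (Lox), and Tmem38b at -0.64 is the 1 called point below 0.

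Gene lists for 2 signals known to act on these enzymes were read beside them. Of 15 hypoxia-responsive genes, 1 rose and the median log2 fold change was -0.04: Ndrg1 had 0.58 (SE 0.08, edgeR adjusted p = 0.0141), while Higd1a (-0.66) and Vegfa (-0.65) were not called. Of 12 genes responsive to TGF-beta, 4 rose and the median was 0.90. Those were Postn (1.79, SE 0.28), Fn1 (1.69, SE 0.35), Cthrc1 (2.06, SE 0.44) and Tgfbi (1.47, SE 0.34), all matrix genes, and Ltbp2 (1.46) and Ctgf (1.00) were not called. All 4 calls were lost without the second library labelled mdx/Runx1f/f, with adjusted p of 0.0547 for Postn, 0.097 for Fn1, 0.101 for Cthrc1 and 0.137 for Tgfbi. Of 7 leave-one-out fits, Postn was called in 6, Fn1 and Cthrc1 in 2 and Tgfbi in 1.

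Profiles over the 7 libraries were compared by the root mean square distance between log2 CPM values centred on each gene's mean, which is a description over libraries that share the group difference. Within the 10 genes the nearest pair was Plod1 and Plod3, at 0.13, followed by Loxl1 and Loxl2 at 0.19. The farthest was Lox and P4ha2, at 1.19. Among all genes tested, Lox lay nearest to Emb (0.12), Tnc (0.22) and BC055004 (0.22). Loxl1 lay nearest to Cacnb3 (0.11), Fam38b (0.12) and Boc (0.13), and Loxl2 to Itgb3 (0.09) and Sulf2 (0.09). Loxl3 lay nearest to Arsj (0.08), Plod2 to Cpne8 (0.08) and Serpinh1 to Gpc3 (0.07). Plod1 lay nearest to Tm9sf1 (0.02), Plod3 to BC017643 (0.05), P4ha1 to Cxx1c and Adm (0.08 each) and P4ha2 to Rev1 (0.06). Emb, the nearest to Lox, was at 158, 169, 56.3 and 63.2 normalised counts under the mdx label and at 268, 586 and 374 under the other, so it too was lowest in animals 373 and 375 and highest in animal 363.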

How the data were processed

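RNA of whole soleus was sequenced from 7 mice, of which 4 carry the label mdx and 3 the label mdx/Runx1f/f. The authors deposited raw read counts per gene, made with TopHat2 2.0.10 and HTSeq on mm9, as the submitters' processing notes list. Beside them stand normalised counts, a signal the authors obtained by dividing each library's counts by its size factor. The deposited columns go on with the authors' log2 fold change and p-value, named in the file headers, and the notes name DESeq2 1.6.3. Not given in the sources used here are the annotation, the strand setting and the treatment of reads with several matches.

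Groups came from the titles, which name 7 animals, so replicates were read as animals, and columns were joined to samples by the animal number in the title. Total counts were 16218306 to 20847902; the lowest chi-square between 2 libraries was 15.8 per degree of freedom, so none was counted as a duplicate. The fit on raw counts used the quasi-likelihood test of edgeR 4.0.16 (R 4.3.3) with TMM, filterByExpr and group as the only term; Benjamini-Hochberg adjustment ran over 14033 genes, and calls needed an adjusted p below 0.05. The standard error was the log2 fold change over the root of F. Alternatives were upper-quartile factors, DESeq2 1.42.0, limma-voom (limma 3.58.1), no filter, a filter of 10 CPM in 3 libraries, each library left out, a replicate block, the animal number series, and groups by the description field. Distances used log2 CPM with a prior count of 2.

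The 10 genes and the gene lists were chosen with earlier results of these data known. Named genes are Runx1, the 10 genes, up to 5 called genes per direction with the smallest p and the 2 largest uncalled changes of each other list, Col1a1, Col1a2, Col3a1, 5 defining markers (Pdgfra, Csf1r, Pecam1, Acta1 and Myh7), and the 3 nearest profiles per gene, of which some are printed. Some further genes of the marker and substrate lists are named for their weight in a sum, their direction or the enzyme that acts on them. Ranges of summed counts, ratios and levels per exon length carry no test.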

Additional observations from a re-analysis of the deposited data

How the results depend on the processing

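By edgeR 715 genes were higher and 260 lower. DESeq2 gave 1484 and 881, a covariate for the animal number series 1246 and 582, animals 373 to 375 alone 1361 and 440, the description field's groups 5 and 3, and animals 358 to 363 alone 0 and 0 (1658 and 1011 at an unadjusted p below 0.05). Leaving out a library gave 173 to 641 higher and 17 to 209 lower. Of the 10 genes 6 were higher by DESeq2 and 6 with the series covariate, against 4 by edgeR. With a library left out 0 to 4 were higher, with 0 in animals 358 to 363 alone and 0 by the description field. For the other collagen machinery these were 3 to 8, 0 and 0 higher, and 0 to 1, 0 and 0 lower; 9 genes were higher and 2 lower at an unadjusted p below 0.05 in animals 358 to 363, and 0 and 1 by the description field. Fewer libraries were fitted in the reduced settings; otherwise the cause was not tested.

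Same-numbered libraries deviated together with correlations of -0.007, 0.241 and 0.275, and mdx replicate 1 correlated best with mdx/Runx1f/f replicate 2 (0.506), so the numbers were not taken as pairs. A replicate block over 7 libraries gave 240 higher and 80 lower, over the 6 numbered 1 to 3 it gave 211 and 74, and in both fits 4 other machinery genes were higher. Over 7 libraries the adjusted p with the block was 0.0534 for Col1a1 and 0.0574 for Col1a2.

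Runx1 had 1.77 in animals 358 to 363 alone (adjusted p 0.131) and -0.80 by the description field. That grouping also turned the sign of Lox (-0.90), Loxl3 (-0.60), Plod1 (-0.13), Plod2 (-0.42), Plod3 (-0.28) and Serpinh1 (-0.03). Outside the 10 genes it turned Crtap (-0.31), Leprel2 (-0.17), Fkbp10 (-0.52), Lepre1 (-0.25), P4ha3 (-1.15), Ppib (-0.41), Sec24d (-0.16), Sar1b (-0.26), Adamts2 (-0.16), Pcolce2 (-0.40), Pcolce (-0.30), Adamts14 (-0.77), Tll1 (-0.13), Col5a1 (-0.24), Col5a2 (-0.25), Col6a2 (-0.15), Col6a1 (-0.21), Col6a3 (-0.11), Ndrg1 (-0.12), Vegfa (0.82), Postn (-0.31), Fn1 (-0.14), Cthrc1 (-0.87), Tgfbi (-1.06), Ltbp2 (-1.23), Ctgf (-1.26), Col1a1 (-0.21), Col1a2 (-0.32), Col3a1 (-0.07), Pdgfra (-0.32), Csf1r (-1.28), Acta1 (0.16) and Myh7 (0.15). None of these passed the threshold under it. Sar1b was -0.44 in animals 373 to 375 alone and -0.18 to 0.58 with a library left out, and P4ha2 was -0.14 to 0.07. Directions in the text rest on the titles' groups.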
